A study of Mus musculus with 4 samples.

Results

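Potassium channel genes were followed through the cell classes of the mouse ventricle, in sedentary and in running mice, with and without myocardial infarction. The members were all genes whose symbol starts with Kcn, the prefix of the potassium channel subunits. Of the 25906 genes in the count table, 94 carried that prefix. The 78 with at least 20 unique molecular identifiers (UMIs, counts of individual captured RNA molecules) over all libraries are described here. They comprise 33 voltage-gated pore subunits, 10 voltage-gated beta and accessory subunits, 12 inward rectifiers, 8 calcium- or sodium-activated pore subunits, 4 beta subunits of the BK channel, 10 two-pore-domain leak channels and Kcnrg, which is related to the assembly domain of voltage-gated channels.

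Potassium channels let potassium leave the cell, and so set the resting potential and end the action potential. In the mouse ventricle the transient outward current of Kcnd2 and Kcnd3, with their accessory subunit Kcnip2, repolarises the myocyte early, delayed rectifiers complete repolarisation, and the inward rectifiers Kcnj2 and Kcnj12 hold the resting potential. In vessels, calcium-activated and ATP-sensitive potassium channels take part in the control of tone.

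The hearts came from wild-type C57BL/6J mice of both sexes that were 8 weeks old at the start. Mice were kept sedentary or ran on wheels by choice for 16 weeks. Hearts were taken without an infarct, or 2 weeks after a myocardial infarction. The 4 groups are therefore sedentary, running, sedentary infarct and running infarct, and values are given in this order. Nuclei from frozen ventricles were stained with Hoechst, sorted and sequenced with a 10x 3' assay in 1 library per group. A library pools 2 hearts without infarct or 4 hearts with infarct, and the hearts of a pool cannot be told apart. With n = 1 library per group, no difference between groups could be tested. Ranges in brackets are exact 95% intervals, which cover counting error only and not the spread between animals.

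The libraries held 3243 to 6253 barcodes and 26170995 to 37533722 UMIs, and a pair of libraries shared 2 to 12 barcodes. After filtering, 3124 to 5832 nuclei per library remained, of which 17.3 to 23.2% lay in clusters that could not be named. The Kcn genes were left out of the variable genes used for clustering and of the markers that named the 12 classes described. They could still enter the doublet scores and the 10 leading genes of a cluster, which the naming also used. Their levels across classes are therefore not fully independent of how the classes were drawn. Cardiomyocyte-like nuclei numbered 782, 654, 377 and 422, with a median of 8411, 8469, 9462 and 2797 UMIs. Nuclei with at least 2 Y-linked UMIs, a share that moves with depth and with the sexes pooled, made up 37.9, 46.9, 22.5 and 12.6% of them. Mitochondrial RNA took 5.79, 10.0, 3.30 and 3.32% of the UMIs in fibroblast-like nuclei. The part of depth, sex and mitochondrial RNA in the differences below was not tested, beyond the alternatives named beside single genes. The alternative limit of 5% mitochondrial UMIs kept 1830, 513, 1744 and 2692 nuclei and redrew the clusters, so values under it rest on few nuclei of the running library: 133 fibroblast-like, 113 vascular endothelial-like, 42 endocardial-like, 26 macrophage-like and 10 mesothelial-like.

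Levels are UMI counts of a class scaled to a fixed total (CPM), summed over its nuclei and without mitochondrially encoded genes. UMIs were not scaled for gene length, so each gene is compared across classes and libraries and not with other genes. RNA freed from broken cardiomyocytes can enter other droplets. A carry-over level was therefore computed for each gene in each class, as its cardiomyocyte-like CPM times the level of 12 abundant cardiomyocyte transcripts in that class relative to cardiomyocyte-like nuclei. Levels at or below it are read as background.

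Of the 78 members, 67 had at least 20 UMIs in a class and were assigned a leading class, the one with the highest CPM over the libraries summed among the classes with at least 20 UMIs of the gene. In 8 of the 67 a class with fewer UMIs of the gene had a higher CPM. Cardiomyocyte-like nuclei led 23 of them, fibroblast-like nuclei 7, macrophage-like and vascular endothelial-like nuclei 6 each, and endocardial-like and Schwann-like nuclei 5 each. In 32 of the 67 the leading class stood at least 2-fold above the next. The minimum of 20 UMIs favours classes with many UMIs. No share of all genes stands beside these counts of leading classes, so they are not read as a trait of the members. The other 11 were too sparse for a leading class: Kcnab3, Kcng1, Kcng3, Kcnh5, Kcnh6, Kcnj10, Kcnj14, Kcnk1, Kcnk12, Kcnmb1 and Kcnmb3. Summed over the members, cardiomyocyte-like nuclei had 7042, 7818, 6702 and 7215 CPM and smooth muscle-like nuclei 6587, 7008, 4381 and 5833 CPM. Mesothelial-like nuclei had 5261, 6004, 4231 and 4593 CPM and fibroblast-like nuclei 3507, 4054, 3380 and 3205 CPM.

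**Figure D1:**
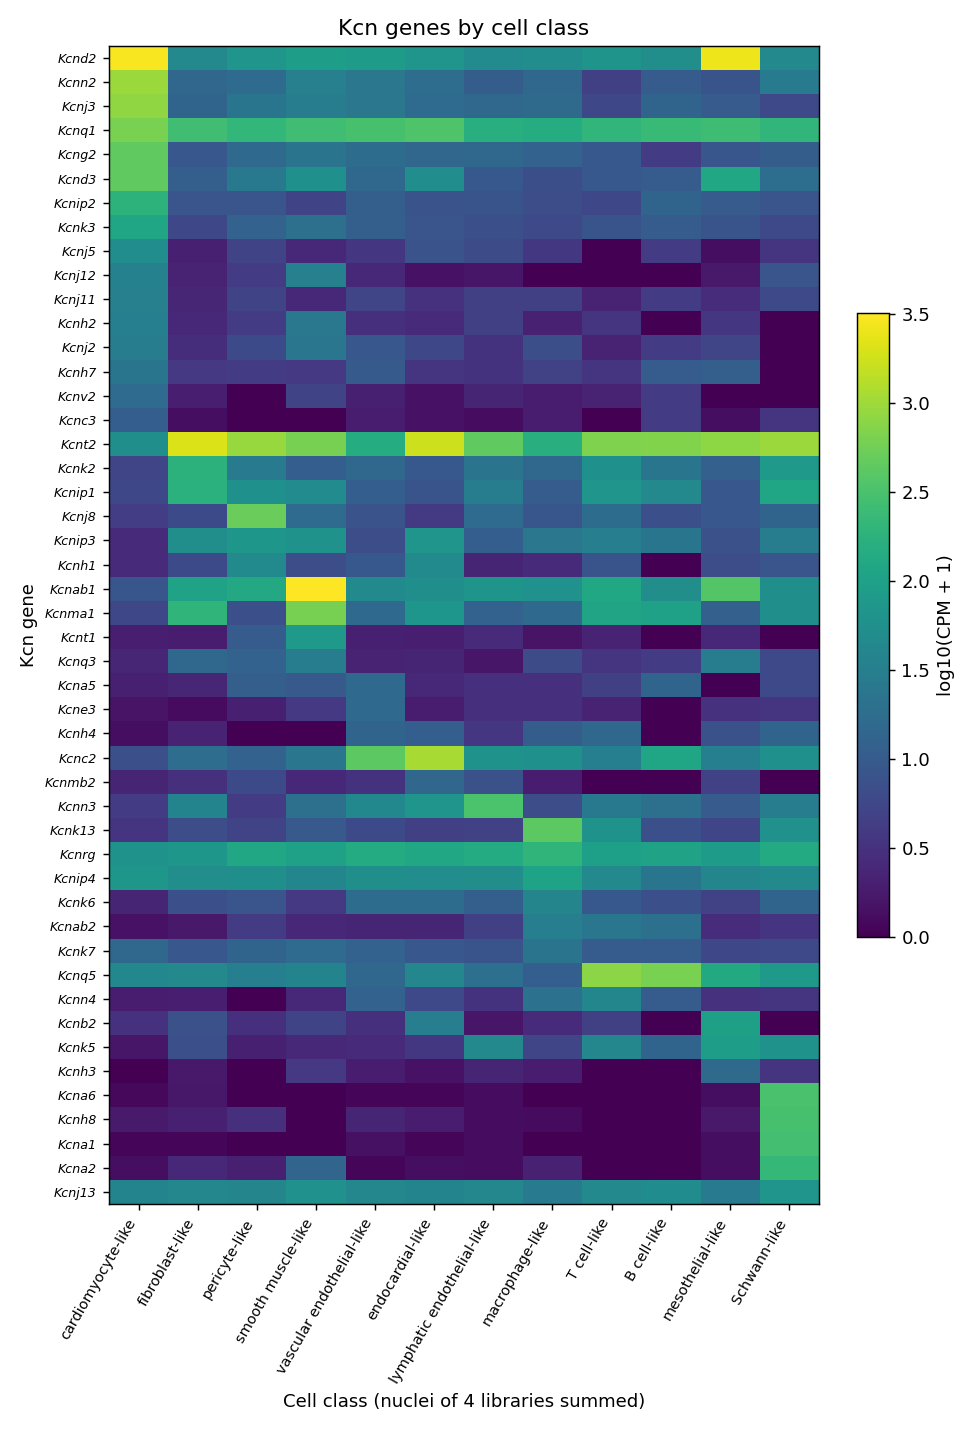
Levels of members that reach at least 10 CPM in their leading class (rows, ordered by that class) in the 12 cell classes (columns), shown as the colour of log10(CPM + 1) with the nuclei of the 4 libraries summed. Kcnd2 is high in cardiomyocyte-like and mesothelial-like nuclei, Kcnab1 in smooth muscle-like nuclei and Kcnt2 in many classes, while Kcnrg and Kcnj13 vary less between columns.

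Among the voltage-gated pore subunits, Kcnd2 stood at 2928 CPM [2903-2954] in cardiomyocyte-like nuclei and at 2596 CPM [2536-2657] in mesothelial-like nuclei, the cells that cover the heart. Its mesothelial-like level was 2984, 3770, 1919 and 2138 CPM in the 4 libraries, against carry-over levels of 150, 152, 154 and 131 CPM. Kcnd2 was thus above background in mesothelial-like nuclei of every library, while it stayed under its carry-over level in each of the other 10 classes. Kcnd3, the second pore subunit of the transient outward current, had 446 CPM in cardiomyocyte-like and 123 CPM in mesothelial-like nuclei. Kcng2, a silent subunit that modifies other pore subunits, had 446 CPM in cardiomyocyte-like nuclei, 20.8-fold above the next class.

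Other voltage-gated pore subunits were led by cells that are not muscle. Kcnc2, a fast delayed rectifier best known from neurons, had 1106 CPM in endocardial-like and 421 CPM in vascular endothelial-like nuclei. Kcnq5, a channel of the M-current family, was led by T cell-like nuclei at 793 CPM, ahead of B cell-like nuclei at 634 CPM.

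Schwann-like nuclei, 58 in all, led Kcna1, Kcna2, Kcna6 and Kcnh8. Kcna1, a channel of nerve fibres, had 36, 58, 11 and 11 UMIs in these nuclei and at most 2 UMIs in any other class of any library. The 10 nuclei with most of its UMIs held 49.1% of the Schwann-like total for Kcna1, so this level rests on few nuclei.

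The accessory subunits followed several classes. Kcnip2, the partner of the Kcnd channels, had 182 CPM in cardiomyocyte-like nuclei, 14.5-fold above the next class, and stayed under its carry-over level in each of the other classes. Its relative Kcnip1 was led by fibroblast-like nuclei at 175 CPM [169-181], with Schwann-like nuclei next at 118 CPM [87.2-157]. Kcnab1, a beta subunit of voltage-gated channels, had 3211 CPM in smooth muscle-like and 375 CPM in mesothelial-like nuclei.

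Kcnj2, Kcnj3, Kcnj5, Kcnj11 and Kcnj12, all inward rectifiers, were led by cardiomyocyte-like nuclei. Kcnj3, which with Kcnj5 forms the acetylcholine-gated channel, had 847 CPM there, 28.2-fold above smooth muscle-like nuclei. Kcnj5 had 51.6 CPM in cardiomyocyte-like nuclei, 7.41-fold above the next class. Kcnj2 and Kcnj12 stood little above their next class: Kcnj2 had 28.6 CPM in cardiomyocyte-like and 22.9 CPM in smooth muscle-like nuclei, and Kcnj12 had 34.1 and 32.9 CPM. The smooth muscle-like levels rest on 16 UMIs of Kcnj2 and 23 of Kcnj12. The median over the classes was lower, at 4.58 CPM for Kcnj2 and 0.987 CPM for Kcnj12.

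The ATP-sensitive pore subunits divided between muscle and vessel wall. Kcnj11 was led by cardiomyocyte-like nuclei at 32.3 CPM. Kcnj8 was led by pericyte-like nuclei at 509 CPM [465-556], 30.6-fold above the next class. Kcnj8 is commonly used as a pericyte marker, but it was not among the markers used for naming here.

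Among the calcium- and sodium-activated pore subunits, Kcnn2, a small-conductance channel, had 939 CPM in cardiomyocyte-like nuclei, 28.5-fold above the next class. Its relative Kcnn3 was led by lymphatic endothelial-like nuclei at 329 CPM [309-350], 4.96-fold above endocardial-like nuclei. Kcnma1, the pore of the large-conductance BK channel, had 616 CPM in smooth muscle-like and 196 CPM in fibroblast-like nuclei. Kcnt2, a sodium-activated channel, had 2073 CPM in fibroblast-like and 1712 CPM in endocardial-like nuclei.

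The leak channels given here were each led by a different class. Kcnk3 was led by cardiomyocyte-like nuclei at 113 CPM, 6.06-fold above the next class. Kcnk13 was led by macrophage-like nuclei at 415 CPM, 6.60-fold above T cell-like nuclei. Kcnk2, a channel that responds to stretch, was led by fibroblast-like nuclei at 178 CPM, 2.26-fold above Schwann-like nuclei. Kcnk5 was led by mesothelial-like nuclei at 89.5 CPM [78.7-101], with Schwann-like nuclei next at 61.6 CPM [39.8-90.9].

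Of the 10 members with at least 10 UMIs in each of the 11 classes with at least 100 nuclei, Kcnj13, Kcnrg and Kcnq1 had the narrowest ranges. Kcnj13 ranged from 25.7 to 58.7 CPM (2.28-fold), Kcnrg from 60.6 to 198 CPM (3.26-fold) and Kcnq1 from 148 to 631 CPM (4.28-fold). Kcnj13, an inward rectifier, lies on the strand opposite Gigyf2 in the GENCODE vM21 annotation. On the same strand 11 members overlap a listed gene, among them Kcnd2 and Kcnt2. On the opposite strand 12 of the 78 members do so, with Kcnma1, Kcnip1, Kcnip4, Kcnq1 and Kcng2 among them. Whether the counting used strand is not given in the sources used here, so for these 12 members UMIs of the partner gene cannot be told apart.

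For the comparisons between libraries, a member counts as measured in a class when it has at least 100 UMIs over both libraries, and as higher or lower when its levels differ at least 1.5-fold. The same rule over all genes gives the background share. In cardiomyocyte-like nuclei, after infarct in sedentary mice, 2 of 24 measured members were at least 1.5-fold higher and 3 were lower, against 5.79% and 5.47% of all genes. In running mice, running infarct over running, 1 of 21 was higher and 1 was lower, against 5.62% and 6.85% of all genes. The median log2 ratio of the members was -0.12 in sedentary mice, beside 0.02 over all genes, and -0.05 in running mice, beside -0.02. Most measured potassium channel levels in cardiomyocyte-like nuclei thus lay within 1.5-fold across infarct, with 19 of 24 and 19 of 21 members inside this range. The class is made of a cluster with a median of 8356 to 10947 UMIs and a low-depth cluster with 1008 to 1597 UMIs, which held 86, 85, 80 and 214 of the nuclei. Without the low-depth cluster the counts of members were the same, 2 higher and 3 lower of 24 and 1 higher and 1 lower of 21.

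The transient outward channel genes differed little. Kcnd2 had 2827, 3317, 2472 and 3002 CPM in cardiomyocyte-like nuclei. The infarct level of Kcnd2 was 0.875 times [0.852-0.897] the sedentary level and 0.905 times [0.879-0.932] the running level, so both infarct libraries lay below their own library without infarct. Within Y-positive nuclei alone the log2 ratio of Kcnd2 in sedentary mice was 0.11, against -0.19 over all nuclei.

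Kcnd3 had 455, 446, 415 and 469 CPM. Kcnip2 had 201, 176, 183 and 137 CPM, with the lowest level in running infarct, 0.780 times [0.680-0.891] the running level. Kcna4, a slower transient outward channel known from the failing and immature ventricle, was sparse at 24, 15, 46 and 16 UMIs, or 3.71, 2.81, 13.4 and 7.73 CPM. Both infarct libraries had the higher Kcna4 level, 3.60-fold [2.15-6.17] in sedentary and 2.74-fold [1.27-5.96] in running mice, but the gene did not reach 100 UMIs in either comparison.

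Among the delayed rectifiers, Kcnh2, the rapid component in larger mammals, had 25.3, 31.7, 45.0 and 30.9 CPM. Only the sedentary infarct library stood apart, at 1.78-fold [1.42-2.23] the sedentary level, and running infarct was 0.974 times [0.719-1.31] running. Kcnq1 had 593, 618, 689 and 685 CPM, 1.16-fold [1.10-1.22] and 1.11-fold [1.04-1.18] higher after infarct. Its partner Kcne1 had 36, 16, 8 and 11 UMIs, too few to compare. Kcna5, the atrial ultrarapid channel in human heart, had 0.773, 1.13, 0.581 and 2.41 CPM.

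The measured inward rectifiers differed less than 1.5-fold across infarct. Kcnj3 had 846, 926, 783 and 752 CPM and Kcnj5 had 57.6, 51.0, 47.4 and 41.0 CPM. Kcnj12 had 35.8, 30.2, 38.1 and 31.9 CPM and Kcnj11 had 36.3, 27.6, 32.0 and 32.8 CPM. Kcnj2 had 30.9, 24.6, 35.4 and 20.3 CPM, and running infarct was 1.75-fold lower [1.22-2.55] than sedentary infarct, on 42 and 122 UMIs.

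Of the other muscle-led members, Kcnk3 had 123, 108, 107 and 104 CPM and Kcng2 had 463, 400, 470 and 475 CPM. Kcnn2 had 826, 1108, 914 and 897 CPM, highest in running mice without infarct, at 1.34-fold [1.29-1.39] the sedentary level. The running infarct level of Kcnn2 was 0.981 times [0.926-1.04] that of sedentary infarct.

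**Figure D2:**
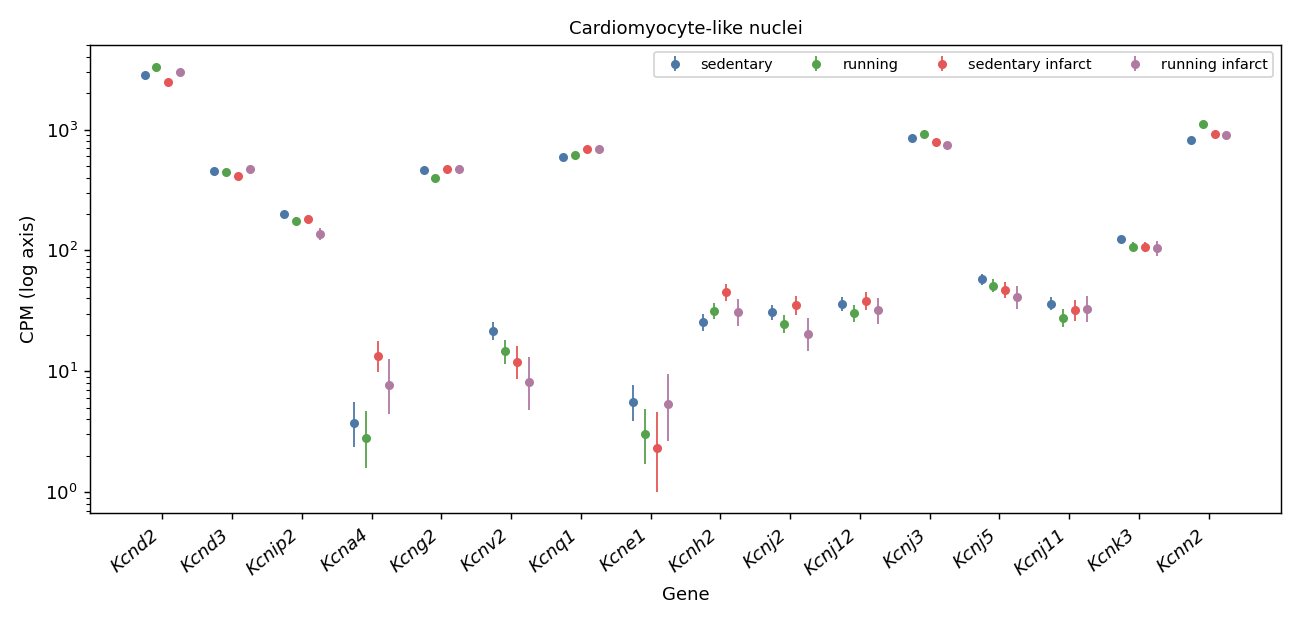
Levels in cardiomyocyte-like nuclei of selected members led by this class, among them the silent subunits Kcng2 and Kcnv2. Values are CPM on a log axis, with 1 point per library and bars for exact 95% counting intervals. The 4 points of Kcnd2, Kcnd3 and Kcnq1 lie close together, while those of Kcna4 spread from 2.81 to 13.4 CPM with wide bars.

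The members past 1.5-fold in cardiomyocyte-like nuclei stood under 100 CPM there in every library. Kcnip4, a further accessory subunit of the Kcnd channels, had 85.6, 85.8, 37.5 and 48.8 CPM and was lower after infarct in both arms, 2.28-fold [1.88-2.79] and 1.76-fold [1.41-2.20]. Both infarct libraries lay below both others. Kcnv2, a silent subunit, had 21.5, 14.6, 11.9 and 8.21 CPM and was 1.80-fold lower [1.26-2.62] in sedentary infarct, while in running mice it had 17 UMIs after infarct and was not measured.

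Kcnrg had 65.2, 69.8, 42.7 and 52.6 CPM, 1.53-fold lower [1.26-1.85] in sedentary infarct. Kcnq5 had 31.4, 35.1, 61.0 and 59.9 CPM, higher by 1.95-fold [1.60-2.37] and 1.71-fold [1.35-2.15]. These Kcnq5 levels rest on few nuclei: without the 10 nuclei of each library with most of its UMIs, the log2 ratios went from 0.96 to 0.23 and from 0.77 to 0.29. In Y-positive nuclei the Kcnq5 ratio in running mice turned to -1.42 on the log2 scale. The 10 T cell markers, of the class that leads Kcnq5, summed to 13.6, 19.0, 20.6 and 15.9 CPM in cardiomyocyte-like nuclei.

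Running without infarct gave 1 of 25 measured members higher and 0 lower in cardiomyocyte-like nuclei, against 4.07% and 2.1% of all genes. The 1 was Kcnt2, at 33.4, 73.9, 46.5 and 81.1 CPM. Both running libraries lay above both sedentary ones, by 2.22-fold [1.87-2.63] without and 1.74-fold [1.40-2.18] with infarct. In Y-positive nuclei the second of these Kcnt2 ratios was -0.48 on the log2 scale. Kcnt2 is led by fibroblast-like nuclei, and the 10 fibroblast markers, all detected, summed to 505, 632, 635 and 957 CPM in cardiomyocyte-like nuclei, also higher in each running library than in its sedentary counterpart. Their part in the Kcnt2 levels was not tested. After infarct, running infarct over sedentary infarct, 1 of 22 members was higher (Kcnt2) and 1 lower (Kcnj2), against 3.63% and 3.32% of all genes.

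**Figure D3:**
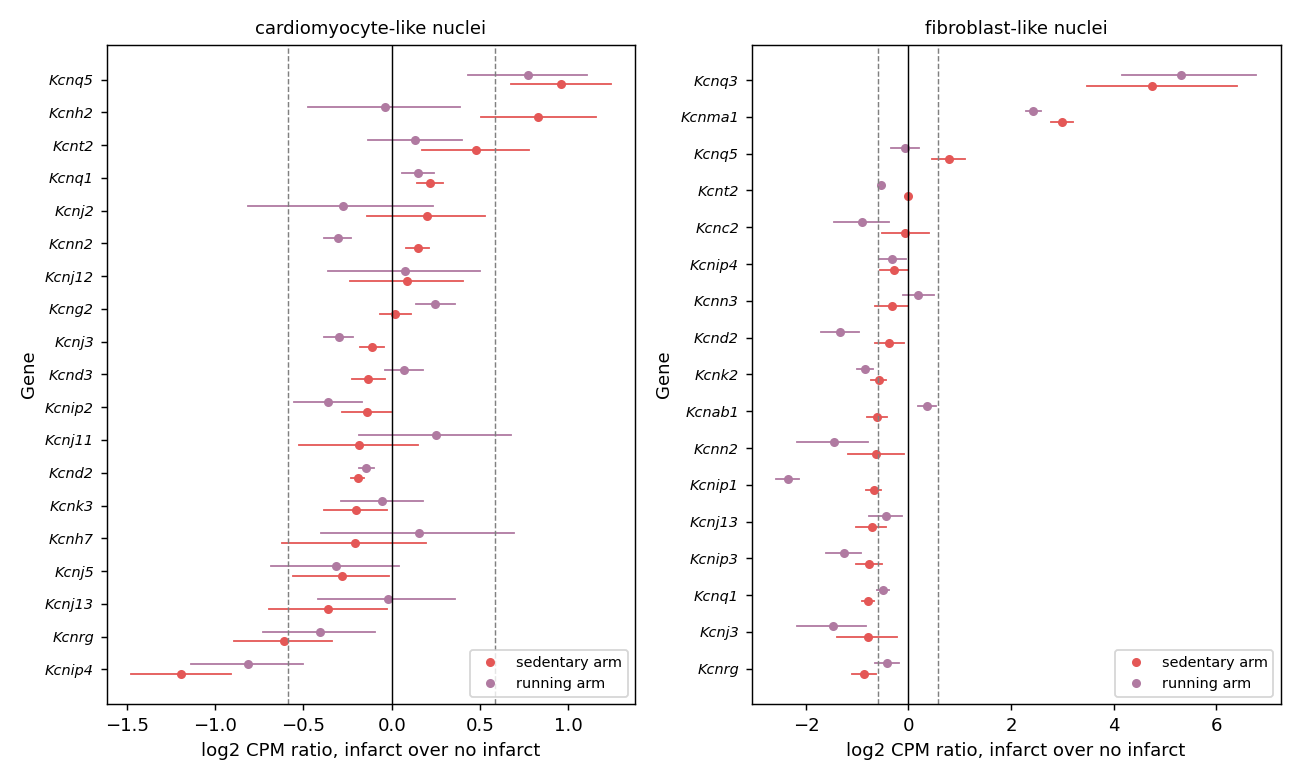
Log2 CPM ratio of infarct over no infarct (horizontal axis) for members measured in both arms (rows), in cardiomyocyte-like (left) and fibroblast-like nuclei (right), with bars for exact 95% counting intervals and dashed lines at 1.5-fold. The sedentary and the running arm share no library, and the points of Kcnq3 and Kcnma1 in fibroblast-like nuclei lie farthest to the right in both.

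Of 21 members measured in both arms in cardiomyocyte-like nuclei, 5 were higher and 10 lower in both, with a Pearson r across genes of 0.69. In fibroblast-like nuclei 3 of 19 were higher and 12 lower in both arms, with r = 0.91. In endocardial-like nuclei the counts were 1 and 12 of 15. No share of all genes stands beside these counts, so they are not read as a trait of the members. Genes are not independent replicates, the members of a class share their library, depth and background, and these counts and r are a description.

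Fibroblast-like nuclei (1428, 1527, 930 and 777) had the most members past 1.5-fold across infarct. After infarct in sedentary mice 3 of 20 measured members were higher and 8 lower, against 6.48% and 7.6% of all genes. In running mice 3 of 19 were higher and 7 lower, against 7.04% and 9.55%. The median log2 ratio of the members was -0.35 and -0.45, beside -0.02 and -0.05 over all genes.

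Kcnma1 had 41.9, 79.9, 332 and 432 CPM in fibroblast-like nuclei. Both infarct libraries lay far above the others, 7.93-fold [6.87-9.19] in sedentary and 5.41-fold [4.87-6.00] in running mice. Nox4, Col8a1, Col12a1 and Postn, genes of activated fibroblasts, were among the 10 leading genes of a fibroblast-like cluster, called Postn-led here. Kcnma1 was itself among these 10 genes. This cluster made up 2.73, 3.54, 45.4 and 58.6% of the class and carried Kcnma1 at 439, 509, 551 and 597 CPM. In the largest cluster of the other fibroblast-like nuclei it had 4.30, 8.50, 10.5 and 32.9 CPM. Kcnma1 thus varied more between clusters than between libraries within the Postn-led cluster, whose share differed between the libraries. The 10 smooth muscle markers, of the class that leads Kcnma1, summed to 246, 233, 313 and 288 CPM in fibroblast-like nuclei. The 10 pericyte markers summed to 298, 300.5, 494 and 488 CPM there, also higher in both infarct libraries, and the part of either list in the Kcnma1 levels was not tested.

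Without the Postn-led cluster the log2 ratio of Kcnma1 went from 2.99 to 1.46 in sedentary and from 2.43 to 1.17 in running mice. With a finer clustering, at resolution 2, the log2 ratios of Kcnma1 were 0.65 and 0.95, but there a cluster led by Kcnma1, of 1, 3, 281 and 341 nuclei, could not be named and was outside the class. When nuclei with more than 5% mitochondrial UMIs were left out, the ratio in running mice was -0.04, and that in sedentary mice 2.50. In that setting the Postn-led cluster held 0, 1, 223 and 245 nuclei. A further 344 nuclei of low depth, led by Kcnma1, Kif26b, Ltbp2 and Col8a1, formed an unnamed cluster outside the class, with 22, 24, 64 and 234 nuclei.

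Kcnq3, a pore subunit of the M-current, had 5, 6, 120 and 147 UMIs in fibroblast-like nuclei, or 0.980, 1.02, 26.4 and 40.4 CPM. Both infarct libraries lay far above the others, and the infarct level of Kcnq3 was 26.9-fold [11.2-84.3] and 39.8-fold [17.9-110] higher. In the Postn-led cluster it had 0, 0, 117 and 145 UMIs, which is most of its UMIs in the class. The Postn-led cluster held few nuclei without infarct, so a count of 0 there is not absence, and without this cluster Kcnq3 had too few UMIs for a ratio.

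Several members were lower in fibroblast-like nuclei after infarct. Kcnip1 had 214, 251, 134 and 49.0 CPM, 1.60-fold lower [1.45-1.77] in sedentary and 5.12-fold lower [4.38-6.02] in running mice. In the largest fibroblast-like cluster Kcnip1 had 397, 516, 393 and 252 CPM, and in the Postn-led cluster 0, 34.2, 33.8 and 18.6 CPM. Without the Postn-led cluster the log2 ratio of Kcnip1 in sedentary mice turned from -0.68 to 0.18, and in running mice it went from -2.36 to -1.34.

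Kcnip3, a calcium sensor that also binds Kcnd channels, had 74.5, 61.4, 43.7 and 25.6 CPM, 1.70-fold [1.43-2.03] and 2.40-fold [1.91-3.05] lower after infarct. Within the largest cluster Kcnip3 had 82.5, 74.2, 75.9 and 82.3 CPM, close to even, and in the Postn-led cluster 51.3, 25.7, 21.6 and 14.2 CPM. Kcnk2 had 209, 217, 139 and 121 CPM, at 0.667 times [0.604-0.736] the sedentary level, just short of the 1.5-fold limit before rounding, and 1.80-fold lower [1.61-2.01] in running mice. In the Postn-led cluster Kcnk2 had 336, 312, 106 and 85.4 CPM, with both infarct libraries below both others, and in the largest cluster 203, 252, 200 and 296 CPM.

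Kcnq1 had 341, 305, 197 and 215 CPM in fibroblast-like nuclei and was 1.73-fold lower [1.60-1.88] in sedentary infarct. Kcnt2 had 1964, 2478, 1964 and 1703 CPM. The sedentary libraries did not differ in Kcnt2, at a ratio of 1.00 [0.972-1.03], while running infarct was 0.687 times [0.667-0.708] the running level. Kcnab1 had 116, 101, 75.3 and 131 CPM, 1.74-fold higher [1.51-2.00] in running infarct than in sedentary infarct.

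Other members counted as lower in the class were Kcnj13, Kcnrg and Kcnab1 in sedentary mice and Kcnc2 in running mice. Each of these stood above its carry-over level in every library. The rest, Kcnj3, Kcnn2 and Kcnd2, were led by cardiomyocyte-like nuclei. Kcnj3 had 14.5, 18.3, 8.35 and 6.60 CPM, under its carry-over level of 52.2, 53.7, 34.1 and 29.0 CPM. Kcnn2 and Kcnd2 likewise stayed under their carry-over levels in fibroblast-like nuclei of every library. The 12 cardiomyocyte transcripts behind the carry-over level had 4073, 3762, 2921 and 2499 CPM in fibroblast-like nuclei, lower after infarct like these 3 genes. By the rule given above, the levels of these 3 genes are read as background. Whether fibroblasts express them at a low level was not tested.

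**Figure D4:**
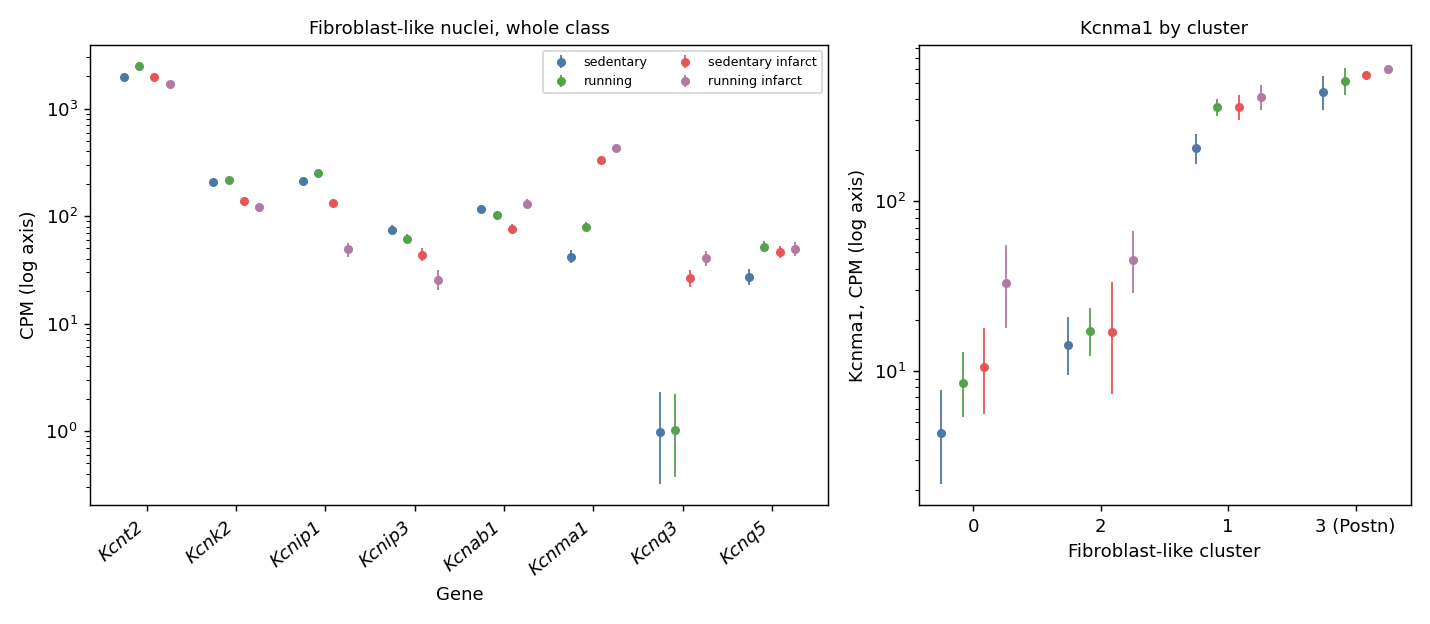
Left, levels of 8 members over all fibroblast-like nuclei, and right, Kcnma1 in the 4 fibroblast-like clusters, in CPM on log axes with 1 point per library and bars for exact 95% counting intervals. Kcnma1 lies between 439 and 597 CPM in the Postn-led cluster (3) of every library and under 50 CPM in clusters 0 and 2.

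Running without infarct gave 2 of 20 members higher and 0 lower in fibroblast-like nuclei, against 2.34% and 1.47% of all genes. They were Kcnma1, at 1.90-fold [1.62-2.25] the sedentary level, and Kcnq5, with 27.0, 52.1, 46.6 and 49.8 CPM, at 1.93-fold [1.57-2.37]. The sedentary library had the lowest Kcnq5 level of the 4. Running infarct over sedentary infarct gave 2 of 18 members higher (Kcnab1 and Kcnq3) and 4 lower, against 2.12% each way of all genes. The largest of the 4 was Kcnip1, 2.73-fold lower [2.30-3.24].

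In endocardial-like nuclei (415, 521, 225 and 421), which line the chambers, the members that differed after infarct were lower. Of 15 measured members, 4 were lower and 0 higher in sedentary mice, against 8.14% and 5.79% of all genes. Of the 4, Kcnd2 lay under its carry-over level, and the others were Kcnc2, Kcnn3 and Kcnma1. In running mice 6 of 15 were lower and 0 higher, against 11.9% and 5.35%. Running over sedentary gave 0 of 15 in either direction, against 3.14% and 2.41% of all genes, and running infarct over sedentary infarct 0 of 11, against 2.53% and 4.68%.

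Kcnc2 had 1609, 1528, 561 and 517 CPM in endocardial-like nuclei, 2.87-fold [2.61-3.15] and 2.95-fold [2.74-3.19] lower after infarct. Kcnn3 had 89.7, 93.8, 37.0 and 32.7 CPM, 2.42-fold [1.67-3.59] and 2.86-fold [2.11-3.95] lower. Kcnma1 had 104, 105, 34.0 and 19.1 CPM, 3.06-fold [2.10-4.59] and 5.50-fold [3.77-8.26] lower. In each of these 3 genes both infarct libraries lay below both others, and for Kcnma1 this is the opposite of its order in fibroblast-like nuclei.

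A cluster that made up 21.0, 16.5, 4.00 and 4.99% of the endocardial-like class carried these 3 genes at their highest. There Kcnc2 had 4196, 5761, 2803 and 3933 CPM and Kcnn3 had 267, 371, 227 and 324 CPM. In the main endocardial-like cluster Kcnc2 had 669, 512, 479 and 332 CPM, Kcnn3 had 25.4, 27.3, 30.1 and 16.9 CPM and Kcnma1 had 4.70, 9.10, 22.8 and 13.8 CPM. The gap between libraries was thus smaller within the main cluster than over the class for Kcnc2 and Kcnn3. For Kcnma1 the order differed, and Kcnn3 was not lower in sedentary infarct than in sedentary within this cluster. The 10 endocardial markers summed to 8924, 10090, 15984 and 22024 CPM over the class, higher in both infarct libraries. The part of this shift within the class in the 3 differences was not tested.

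With at most 5% mitochondrial UMIs the log2 ratio of Kcnc2 in running mice went from -1.56 to -0.15, and that of Kcnn3 in sedentary mice from -1.28 to 0.30. In that setting a cluster led by Kcnc2, of 51, 23, 21 and 19 nuclei, could not be named and was outside the class. Kcnt2 had 1476, 1970, 1565 and 1709 CPM in endocardial-like nuclei and Kcnq1 had 367, 345, 339 and 348 CPM, both within 1.5-fold in every comparison. In running mice Kcnq5 was 2.83-fold lower after infarct and Kcnab1 1.65-fold.

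Vascular endothelial-like nuclei numbered 824, 950, 389 and 856. After infarct 2 of 10 members were lower in sedentary mice, with 0 higher, against 7.03% and 5.35% of all genes. In running mice 4 of 10 were lower, with 0 higher, against 8.43% and 5.42%. Kcnc2 had 564, 493, 239 and 266 CPM, 2.37-fold [2.05-2.74] and 1.85-fold [1.66-2.07] lower. Kcnn3 had 54.2, 54.6, 17.4 and 24.6 CPM, 3.11-fold [1.86-5.54] and 2.22-fold [1.55-3.23] lower. For both genes the infarct libraries lay below the others.

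In the largest vascular cluster, 54.5 to 64.8% of the class, Kcnc2 had 837, 743, 279 and 334 CPM, so the infarct libraries were lower within this cluster too. Kcnn3 had 9.52, 10.7, 12.5 and 20.4 CPM in it, which is not its order over the class. Kcnn3 was carried by a cluster led by Gja5 and Sema3g, genes of arterial endothelium, with 92, 106, 5 and 14 UMIs, or 154, 152, 56.0 and 103 CPM. That cluster made up 23.8, 22.3, 8.48 and 5.72% of the class, and a low-depth cluster 17.5, 23.2, 26.7 and 35.6%. At resolution 2 a vascular endothelial-like cluster led by Kcnc2 held 315, 292, 124 and 154 nuclei. Another one, without Kcnc2 among its 10 leading genes, held 154, 205, 122 and 334 nuclei. The part of these shares and counts in the levels of Kcnn3 and Kcnc2, over the class or within the largest cluster, was not tested. With at most 5% mitochondrial UMIs the log2 ratio of Kcnc2 in running mice turned to 0.73. In Y-positive nuclei that in sedentary mice was 0.07. Kcna5 had 22.0, 13.2, 12.3 and 11.1 CPM in the whole class, its leading class, and 31.0, 18.6, 13.7 and 12.1 CPM in the largest cluster.

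Running over sedentary gave 1 of 12 members lower and 0 higher in vascular endothelial-like nuclei, against 1.84% and 3.59% of all genes, and running infarct over sedentary infarct 0 of 8 in either direction, against 2.94% and 2.24%. The former was Kcnj3, under its carry-over level in this class. In lymphatic endothelial-like nuclei (193, 274, 76 and 128), Kcnn3 had 404, 341, 290 and 203 CPM and was 1.68-fold lower [1.36-2.09] in running infarct than in running. Kcnt2 had 384, 549, 384 and 297 CPM there and was 1.85-fold lower [1.55-2.21] in the same comparison. These were 2 of 6 measured members lower, with 0 higher, against 8.66% and 4.64% of all genes. Kcnc2 had 102, 71, 2 and 16 UMIs in this class and was the 1 of 5 members lower in sedentary infarct, with 0 higher, against 7.86% and 4.91%. Kcnc2 and Kcnd2 were the 2 of 9 lower in running without infarct, with 0 higher, against 2.84% and 4.07%, and Kcnd2 lay under its carry-over level. After infarct, running over sedentary gave 0 of 4 in either direction, against 3.73% higher and 3.03% lower.

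Mesothelial-like nuclei (106, 113, 131 and 210) differed in both directions. In sedentary mice 1 of 8 members was higher and 3 were lower after infarct, against 8.65% and 7.43% of all genes. In running mice 2 of 9 were higher and 2 lower, against 9.21% and 8.09%. Kcnd2, whose levels are given above, was 1.55-fold [1.44-1.68] and 1.76-fold [1.66-1.87] lower after infarct. Both infarct libraries lay below both others, and the direction was the same under every alternative run.

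Kcnd3 had 227, 147, 75.1 and 87.7 CPM in mesothelial-like nuclei, 3.02-fold [2.15-4.28] and 1.67-fold [1.23-2.28] lower, and its running level was 1.55-fold lower [1.16-2.06] than sedentary, the 1 of 8 members lower in that comparison, with 0 higher, against 4.66% and 3.95% of all genes. With at most 5% mitochondrial UMIs the log2 ratio of Kcnd3 in running mice was 0.20. Kcnab1 had 125, 127, 479 and 587 CPM, 3.83-fold [2.92-5.09] and 4.64-fold [3.64-5.97] higher after infarct. Over the alternatives run its log2 ratio lay between 1.47 and 3.20 in both arms. The 10 smooth muscle markers, of the class that leads Kcnab1, summed to 745, 572, 574 and 819 CPM in mesothelial-like nuclei. The 10 fibroblast markers summed to 3375, 3099, 4388 and 3881 CPM there, higher in both infarct libraries. The part of either list in the Kcnab1 levels was not tested.

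Kcnb2, a delayed rectifier led by this class, had 62.5, 83.3, 56.0 and 151 CPM, highest in running infarct at 2.69-fold [1.87-3.96] the sedentary infarct level, the 1 of 9 members higher there, with 0 lower, against 3.2% and 4.32% of all genes. Kcnb2 rests on few nuclei, and with at most 5% mitochondrial UMIs its log2 ratio of running infarct over running turned from 0.85 to -1.32. Kcnk5 had 106, 105, 79.5 and 78.5 CPM, and its interval included no difference in each comparison.

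**Figure D5:**
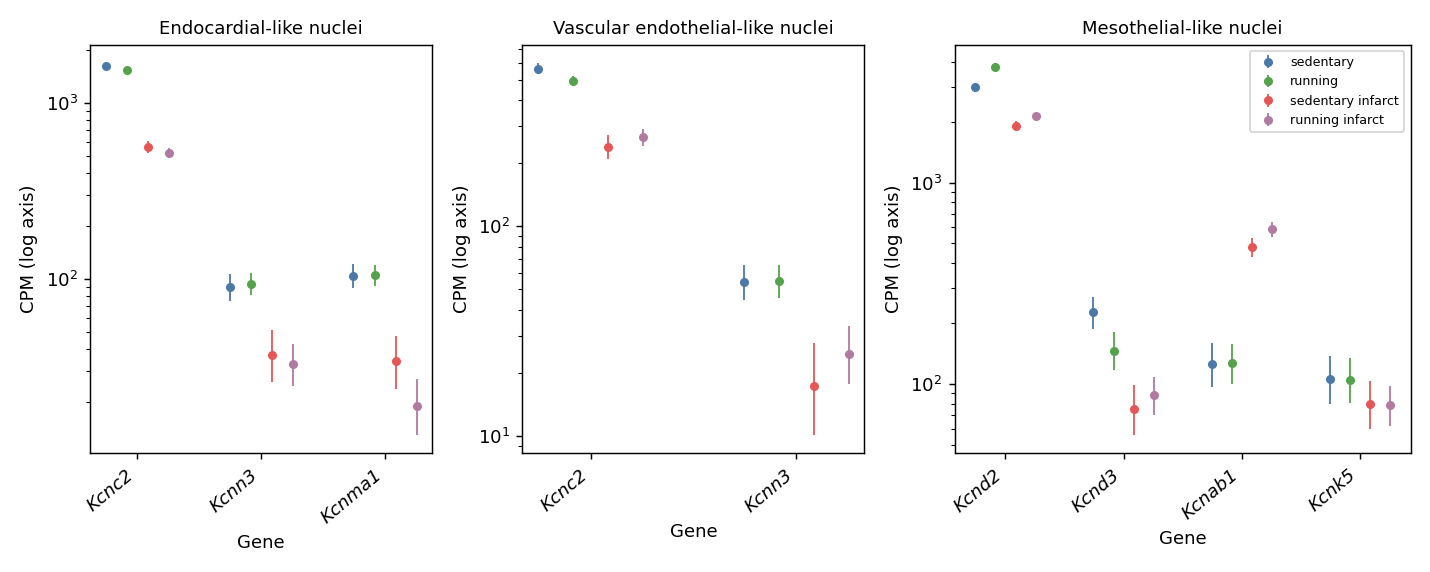
Levels of selected members in endocardial-like, vascular endothelial-like and mesothelial-like nuclei, in CPM on a log axis, with 1 point per library and bars for exact 95% counting intervals. All shown differ after infarct except Kcnk5. Kcnc2 and Kcnn3 lie lower in both infarct libraries of the 2 endothelial classes, and Kcnab1 lies higher in those of mesothelial-like nuclei.

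Mural cells were few. In pericyte-like nuclei (103, 103, 91 and 93) Kcnj8 had 632, 466, 515 and 340 CPM. Running infarct was 1.52-fold lower [1.09-2.14] than sedentary infarct, 1 of 2 measured members, against 6.95% of all genes, and in Y-positive nuclei the log2 ratio of Kcnj8 was 0.10. Kcnt2 had 685, 929, 1100 and 1095 CPM in pericyte-like nuclei and was 1.61-fold higher [1.33-1.94] in sedentary infarct than in sedentary, 1 of 4 measured members, against 5.03% of all genes.

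In smooth muscle-like nuclei (41, 49, 29 and 52) Kcnab1 had 3410, 3874, 2191 and 3263 CPM and Kcnma1 had 608, 813, 407 and 602 CPM. The sedentary infarct library, with 29 nuclei, had the lowest level of both. Kcnmb1, the beta subunit that tunes the smooth muscle BK channel, had 5, 9, 3 and 1 UMIs. In running mice Kcnq1 was 1.83-fold lower [1.21-2.80] after infarct, 1 of 4 measured members, against 13.3% of all genes.

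Among immune cells, Kcnk13 had 384, 388, 399 and 443 CPM in macrophage-like nuclei (155, 208, 244 and 668), and every interval of its ratios included 1.00-fold. Kcnn4, a calcium-activated channel of blood cells, had 0, 2, 26 and 44 UMIs. Against a floor of 3 counts its level was at least 5.09-fold higher in sedentary infarct than in sedentary, and in running mice it was 8.54-fold [2.23-72.7] higher. Both infarct libraries had Kcnn4 at 31.5 and 26.3 CPM, below the 100-UMI minimum.

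Running infarct over running gave 5 of 8 members lower and 0 higher in macrophage-like nuclei, against 7.29% and 7.77% of all genes. The largest was Kcnc2, with 23, 102, 62 and 17 UMIs and 15.5-fold lower, followed by Kcnip4, 5.88-fold lower [4.42-7.88], then Kcnd2, Kcnab1 and Kcnq1. Of these, Kcnd2 lay under its carry-over level in every library. Kcnip4 rests on few nuclei, with 41.4% of its UMIs in the class in the 10 richest nuclei over the libraries. All 5 were higher with at most 5% mitochondrial UMIs, but the class also changed. The running library then held 26 macrophage-like nuclei, under the minimum of 30 used for the other comparisons. The class also took in a cluster of 451 nuclei with 5.61 times the median depth of their libraries and a median doublet score of 0.095, just under the limit of 0.1 for naming. Sedentary infarct over sedentary gave 1 of 5 lower, Kcnrg, and 0 higher, against 5.48% and 7.48% of all genes. Running without infarct gave 2 of 6 higher, Kcnc2 and Kcnip4, and 1 lower, Kcnrg, against 4.19% and 2.76%. After infarct, running gave 1 of 6 lower, Kcnip4, and 0 higher, against 2.95% and 2.76%. In T cell-like nuclei (10, 16, 52 and 127) Kcnq5 had 265, 1013, 803 and 856 CPM, and in B cell-like nuclei (1, 21, 21 and 59) it had 105, 563, 433 and 931 CPM. The libraries without infarct held too few nuclei of either type to compare. Running infarct over sedentary infarct gave 0 of 3 measured members in either direction in T cell-like nuclei, against 5.92% higher and 4.71% lower of all genes.

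Genes that work with the channels were read from 3 lists, of partner subunits and trafficking proteins, of transcription factors of cardiac electrical genes, and of pumps and potassium transporters. Of 29 partner genes, 19 were measured in cardiomyocyte-like nuclei in sedentary mice, with 1 higher and 2 lower after infarct, against 5.79% and 5.47% of all genes. In running mice the same 3 of 19 were called in the same directions, against 5.62% and 6.85%. The higher one was Flna, an actin-binding protein that anchors channels, at 2.75-fold [2.04-3.71] and, in running mice, 2.29-fold [1.70-3.08]. The lower ones were Abcc9, the sulfonylurea receptor of vascular and muscle ATP-sensitive channels, and Lrrc52, an accessory protein of calcium- and pH-gated channels.

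Abcc9 was 1.70-fold lower [1.57-1.83] in sedentary and 1.66-fold lower in running infarct, at 434 and 255 CPM in sedentary and 401 and 242 CPM in running mice. Lrrc52 was 2.85-fold [2.36-3.48] and 2.48-fold [1.94-3.21] lower. Of 21 transcription factors, 17 were measured in sedentary mice, with 1 higher and 1 lower (Foxo1). Irx3, which patterns ventricular conduction, was the higher one at 2.06-fold [1.48-2.85]. In running mice 15 were measured, with 2 higher (Irx3 and Etv1) and 2 lower (Klf15 and Foxo3). Of 14 pump and transporter genes, 10 were measured in sedentary mice, with 1 higher (Slc12a4) and 1 lower, and 10 in running mice, with 0 in either direction. These counts stand beside the same shares of all genes as those of the partner list.

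In fibroblast-like nuclei 2 of 12 measured pump and transporter genes were higher and 1 lower after infarct in sedentary mice, and 1 of 11 was higher and 1 lower in running mice. Fxyd6, a pump regulator, was higher in both, 2.34-fold and 3.09-fold. Of 14 measured transcription factors, 1 was higher in sedentary mice, Hif1a, the hypoxia factor, at 1.76-fold, and 2 were lower, Hopx and Foxo1. In running mice Hif1a was again the 1 higher of 14, at 1.88-fold, and Etv1, Klf15 and Hopx were lower. Of 16 measured partner genes, Actn2 was the 1 lower in sedentary mice, with 0 higher, and in running mice 2 were higher and 0 lower. Beside these counts, 6.48% of all genes were higher and 7.6% lower in sedentary mice, and 7.04% and 9.55% in running mice.

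Members led at under 10 CPM included Kcna4, Kcna7, Kcnc1, Kcne1, Kcnj6, Kcnn1 and Kcnu1 in cardiomyocyte-like nuclei, Kcnd1, Kcne4, Kcnj9 and Kcnj15 in fibroblast-like, Kcnc4, Kcnk10 and Kcns3 in endocardial-like, Kcnmb4 in vascular endothelial-like and Kcnk4 in lymphatic endothelial-like nuclei. Of these, Kcnc1, Kcne4, Kcnj6, Kcnj9, Kcnmb4 and Kcnu1 had a higher CPM in another class, on 1 to 19 UMIs. The remaining 16 genes with the prefix had fewer than 20 UMIs. Kcna3, a channel of T cells, had 9 UMIs, Kcne2, a partner of Kcnh2, had 17, and Kcnk15 and Kcnk16 had 0. The other genes under the minimum, at 1 to 17 UMIs, were Kcna10, Kcne1l, Kcnf1, Kcng4, Kcnj1, Kcnj4, Kcnj16, Kcnk9, Kcnk18, Kcns1, Kcns2 and Kcnv1. The RNA Kcnq1ot1 was not analysed here.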

How the data were processed

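Nuclei of 4 libraries were analysed, 1 per group. The deposited values are unnormalized UMI counts, 1 matrix of genes by barcodes per library, which the authors made with Cell Ranger 7.1 against GRCm39, per the file headers and the submitters' processing notes, and whose barcodes were already called as nuclei. The annotation and whether counting used strand are not given in the sources used here.

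A barcode was kept from 300 genes up, unless mitochondrial UMIs exceeded 20%. The highest Scrublet scores were removed as doublets (0.8% per 1000 barcodes), 228, 301, 82 and 192 per library. Nuclei were clustered with scanpy 1.11.5 (3000 variable genes without Kcn and mitochondrial genes, 40 principal components, 15 neighbours, Leiden resolution 1) under Python 3.11.15. Clusters were named from 168 markers of 18 cell types. The 594 nuclei of the pericyte-like cluster held smooth muscle nuclei too and were split, after the clusters were seen, by the names at resolution 2, into 390 pericyte-like, 171 smooth muscle-like and 33 unnamed nuclei. Counts were summed per class and library and scaled to CPM. Level intervals are exact Poisson and ratio intervals exact conditional binomial, computed with scipy 1.17.1. The counting and the intervals were tested on simulated data.

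The members and lists were chosen with earlier results of these data known. Named genes are the 3 highest Kcn genes per class, up to 6 per direction, class and comparison past 1.5-fold with at least 100 UMIs (classes with at least 30 nuclei in both libraries), and a list of heart and vessel channels. No test was possible with 1 library per group. Alternatives were 2 normalizations, 2 filters on nuclei, 2 UMI minimums, 2 clusterings, doublets kept and nuclei split by Y-linked UMIs. Leaving out 2 clusters, and the 10 nuclei richest in a gene, were added after seeing the data. A few genes are not reported here and are left out of the figures, but stay in the counts. Sequences were not used, since no result turns on one.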

Additional observations from a re-analysis of the deposited data

Results flagged for a closer look

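Kcnip4 in macrophage-like nuclei moved in opposite directions with running. It had 138, 249, 108 and 42.4 CPM in the libraries named sedentary, running, sedentary infarct and, last, running infarct. The log2 ratio was 0.85 for running over sedentary and -1.35 for running infarct over sedentary infarct. The difference between these ratios was not tested, since each group is 1 library. Kcnip4 rests on few nuclei: over the libraries, 136 of 1275 macrophage-like nuclei held it, and the 10 richest held 41.4% of its UMIs in the class. With at most 5% mitochondrial UMIs the 2 ratios of Kcnip4 were -1.02 and 0.07, with 99, 26, 288 and 679 nuclei in a class that also took in a cluster of high depth.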

How the results depend on the processing

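No paired analysis was possible because each group is 1 library. Of 78 named ratios past 1.5-fold, 23 changed sign under at least 1 alternative, in 29 values in all, given below. Of 46 within 1.5-fold, 27 changed sign, in 58 values, so their signs carry little. Further, 127 of the 192 counts of members past 1.5-fold stayed within 1.5 times. A median-of-ratios size factor changed no sign of the 78 and moved no count. Pericyte-like and smooth muscle-like nuclei were split by the names at resolution 2, so that setting is no separate alternative for them. The running library kept 513 nuclei with at most 5% mitochondrial UMIs, 26 of them macrophage-like and 10 mesothelial-like. The cause of each change below was not tested, beyond the fewer nuclei or other UMI minimum that the alternative itself sets. Log2 ratios are given with infarct over no infarct, or running over sedentary.

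With at most 5% mitochondrial UMIs, macrophage-like ratios of running infarct over running became 1.82 for Kcnab1, 2.36 for Kcnc2, 1.10 for Kcnd2, 0.55 for Kcnip4 and 1.30 for Kcnq1, and running over sedentary became -3.47 for Kcnc2 and -1.02 for Kcnip4, with 0.071 for Kcnip4 after infarct. Infarct in running mice gave 0.73 for Kcnc2 (vascular endothelial-like), -1.32 for Kcnb2 and 0.20 for Kcnd3 (mesothelial-like) and -0.043 for Kcnma1 (fibroblast-like). Kcnn3 in endocardial-like nuclei gave 0.30 in sedentary mice, and fibroblast-like Kcnc2 0.83 for running infarct over sedentary infarct. Y-positive nuclei gave 0.38 for endocardial-like Kcnab1 and -1.42 for cardiomyocyte-like Kcnq5 (infarct, running mice), 0.068 for vascular endothelial-like Kcnc2 (infarct, sedentary mice), and 0.10 for pericyte-like Kcnj8, -1.31 for fibroblast-like Kcnq3 and -0.48 for cardiomyocyte-like Kcnt2 (running after infarct). Y-negative nuclei gave -0.37 for macrophage-like Kcnc2 (running). With at least 800 genes, Kcnc2 was 0.16 (fibroblast-like, running after infarct) and Kcnd2 0.089 (endocardial-like, infarct, sedentary mice) and 0.19 (lymphatic endothelial-like, running). This last ratio was 0.065 with doublets kept and 0.26 without the 10 richest nuclei. Fibroblast-like Kcnc2, running after infarct, was 0.47 at resolution 2 and 0.59 without the Postn-led cluster, where Kcnip1 was 0.18 (infarct, sedentary mice).

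Counts are given next as those higher and lower, for infarct in sedentary mice, infarct in running mice, running without infarct and running after infarct. A minimum of 20 UMIs gave, in cardiomyocyte-like nuclei, 7, 6, 4 and 4 higher and 9, 7, 2 and 4 lower, and in fibroblast-like nuclei 7, 7, 6 and 4 higher and, for the last 3 comparisons, 11, 4 and 8 lower. A minimum of 200 gave 0 lower in cardiomyocyte-like nuclei for running after infarct and 4 lower in fibroblast-like nuclei for infarct in running mice. In cardiomyocyte-like nuclei, Y-negative nuclei gave 4 lower for infarct in running mice, 2 higher and 2 lower for running without infarct and 0 lower after it. Y-positive nuclei gave 0 higher and 3 lower for infarct in running mice, 2 higher and 2 lower for running without infarct, and 0 in both directions after it. At most 5% mitochondrial UMIs gave 1 higher for infarct in sedentary mice, 0 higher and 2 lower for it in running mice, 2 lower for running without infarct and 0 lower after it. Running after infarct gave 0 higher with at least 800 genes or doublets kept. Every nucleus weighed the same gave 4 higher for infarct in sedentary mice, 2 higher and 3 lower in running mice, 1 lower for running without infarct, and 0 higher and 6 lower after it.

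In fibroblast-like nuclei, Y-negative nuclei gave 1 higher for infarct in sedentary mice, 3 lower for it in running mice, 1 higher for running without infarct and 4 higher after it. Y-positive nuclei gave 1 higher and 5 lower for infarct in sedentary mice, 1 higher in running mice, 1 lower for running without infarct, and 0 higher and 2 lower after it. At most 5% mitochondrial UMIs gave 5 lower for infarct in sedentary mice, 1 higher in running mice and 2 lower for running after infarct. Running after infarct gave 2 lower with at least 800 genes, with doublets kept, with every nucleus weighed the same and at resolution 2, 4 higher with every nucleus weighed the same and without the Postn-led cluster, and 1 higher with Kcn genes among the variable genes. Running without infarct gave 1 higher with doublets kept and at resolution 2. Infarct in sedentary mice gave 1 higher and 4 lower at resolution 2, and 5 lower without the Postn-led cluster.

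Depth limits the sparse members and classes: Kcna4, Kcne1 and Kcnmb1 stayed under 100 UMIs, and smooth muscle-like, T cell-like, B cell-like and Schwann-like nuclei held too few nuclei in at least 1 library for most members to be measured.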
